A study of Mus musculus with 12 samples.

Results

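The 10 genes described here encode transcription factors and a coactivator linked to the follicular helper T (Tfh) cell fate: *Tcf7*, *Lef1*, *Tox*, *Tox2*, *Maf*, *Batf*, *Irf4*, *Pou2af1*, *Bach2* and *Bhlhe40*. They were picked by gene symbol, with no value in the rule but with earlier results of these data known, and they are 10 of the 24561 genes counted. RNA was sequenced from OT-II T cells, which carry a transgenic receptor for ovalbumin, on the C57BL/6 strain. The cells were sorted as CXCR5hi PD-1hi Tfh cells from draining lymph nodes 3 days after immunization with NP-OVA and LPS in alum. Cells labelled CD4-CrexBcl6fl/+ (called BCL6-insufficient) carried 1 floxed *Bcl6* allele and CD4-Cre, which drives deletion in T cells, and the control cells (called wild-type) were labelled CD4-Cre, so that both groups carried the Cre transgene. In both groups the recipients were *Sap*-deficient CD45.1 mice, 3 per group, and each mouse gave 2 technical repeats of about 200 cells, or 12 libraries in all. The ages of the mice were not given. How many donors supplied the T cells was not given either, and if each genotype came from 1 donor, genotype and donor cannot be told apart.

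As background, Tfh cells enter the B cell follicle and help B cells form germinal centers, and the repressor BCL6 is their defining transcription factor. *Tcf7* and *Lef1* encode high-mobility-group (HMG) box proteins that act early, before and upstream of BCL6, and *Tox2* and *Maf* reinforce the program once it has begun. *Batf* and *Irf4* are induced by receptor signals and bind composite sites together. The list is mixed in sign: *Bach2* encodes a repressor that holds back effector and Tfh differentiation, and *Bhlhe40* encodes a repressor that has been described as a limit on Tfh numbers.

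The levels below are normalized CPM, the summed counts of each mouse scaled to a common library size by TMM, given as mean ± SD over 3 mice. A gene was called higher or lower in the BCL6-insufficient group where edgeR (quasi-likelihood test on 6 mice, Benjamini-Hochberg adjustment over all 12719 genes tested) gave an adjusted p under 0.05. Libraries held 3343375 to 8315722 counts. The targeted gene itself went against the label: *Bcl6* was at 150.0, 146 and 150.0 normalized CPM in the 3 BCL6-insufficient mice and at 54.8, 75.6 and 56.9 in the 3 wild-type mice (log2 fold change 1.25, SE 0.12). The counts were made per gene, so a deleted allele cannot be told from an intact one. Groups are therefore named by their labels throughout, and every direction rests on those labels.

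All 10 genes were detected in every library and passed the expression filter. Of these, 6 were called, 3 higher (*Maf*, *Irf4*, *Bhlhe40*) and 3 lower (*Tcf7*, *Lef1*, *Tox2*) in the BCL6-insufficient mice. The background was 18.0% of all genes tested, 9.17% called higher and 8.82% called lower. That split moved with the scaling, to 10.5% higher and 7.52% lower with upper-quartile scaling and to 7.57% higher and 10.9% lower with library totals. *Tox*, *Batf*, *Pou2af1* and *Bach2* were not called. The median log2 fold change of the 10 genes was -0.19, against 0.011 for all genes tested, and their values ran from -0.80 (*Tox2*) to 0.88 (*Bhlhe40*). In 7 of the 10 genes the mice of the groups did not overlap, 3 higher and 4 lower, where 34.4% of all genes tested had groups that did not overlap. Of the 10 genes, 3 were called, 1 higher and 2 lower, without wild-type mouse 3 (background 10.8%), with the first repeats alone (9.38%) and with the second repeats alone (12.4%). The median turned to 0.056 with the first repeats alone and was -0.015 without BCL6-insufficient mouse 2. With the second repeats alone, 2 of the 10 genes had groups that did not overlap (background 30.0%). On the deposited TPM values, tested by limma on log2(TPM + 1), 3 of the 10 genes were called, *Tcf7*, *Lef1* and *Tox2*, all lower. The background there was 10.3%, with 3.07% called higher and 7.20% called lower.

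**Figure D1:**
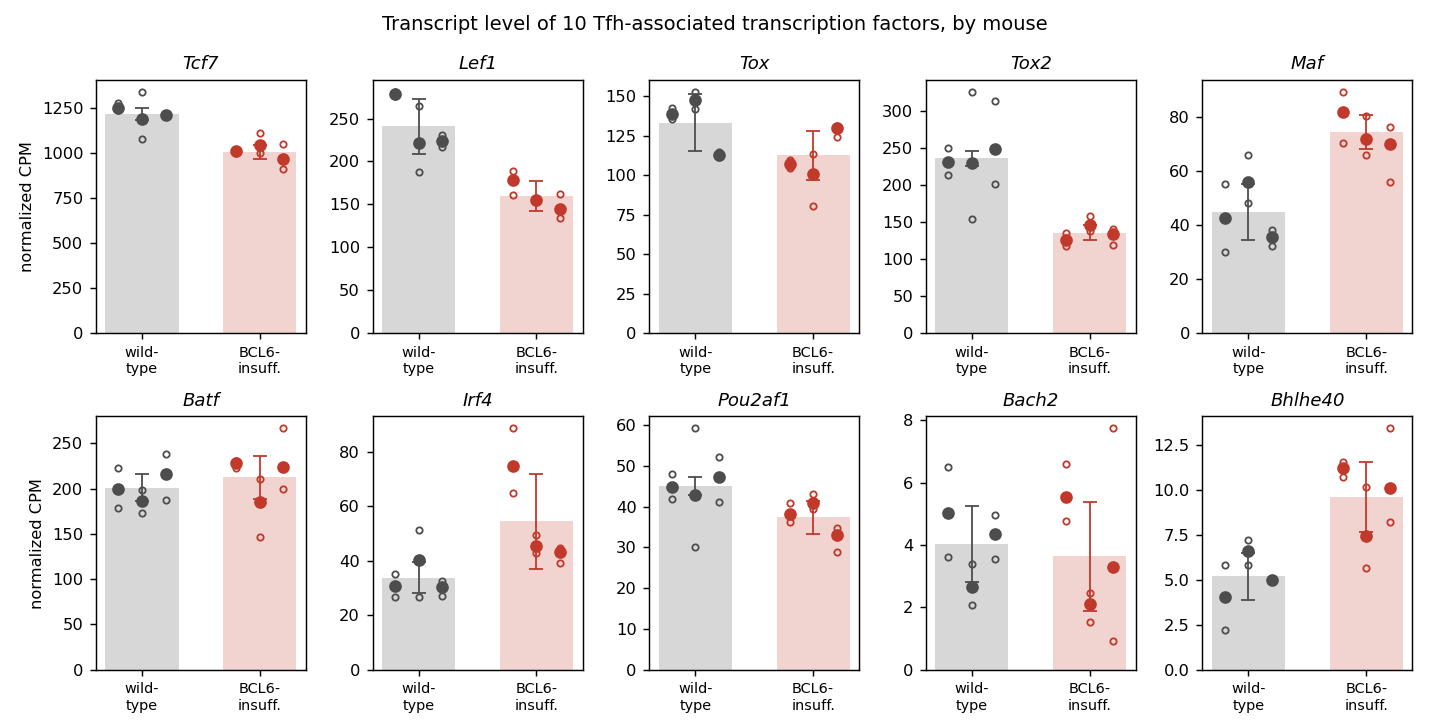
Normalized CPM (y axis, from 0, a separate scale for each gene) of the 10 genes in wild-type (grey) and BCL6-insufficient (red) mice. Filled points are mice, open points are the 2 technical repeats of each mouse, and bars with error bars are the mean ± SD of 3 mice. *Tox2* mice sit between 126 and 146 in the BCL6-insufficient group and between 230 and 248 in the wild-type group, while the mice of the groups overlap for *Tox*, *Batf* and *Bach2*.

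*Tox2* showed the clearest difference of the 10 genes, with the smallest p. It encodes an HMG-box protein that is known to open chromatin at Tfh genes, and it lies on chromosome 2 of GRCm38 from 163203125 to 163324170, plus strand. The BCL6-insufficient mice had 126, 146 and 134 normalized CPM and the wild-type mice 230, 230 and 248. No mouse lay in or near the range of the other group. The means were 135 ± 10.4 and 236 ± 10.4, a ratio of 0.573 and a log2 fold change of -0.80 (SE 0.099, 95% interval -1.01 to -0.60, adjusted p = 8.01e-06). By p it ranked 56th of the genes tested, and 12.3% of genes tested had a larger absolute change. Among single libraries the separation was not complete, because the second repeat of wild-type mouse 2 held 154 CPM and its first repeat 326, while the highest BCL6-insufficient library held 158. The log2 fold change was -1.17 with the first repeats alone and -0.44 with the second repeats alone, and both were called.

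*Tox*, a close relative of *Tox2* that is known from thymic CD4 T cell development and from exhausted T cells, was not called. It lies on chromosome 4 from 6686353 to 6991557, minus strand. Its levels were 107, 101 and 129.9 normalized CPM in the BCL6-insufficient mice and 139, 148 and 113 in the wild-type mice. Wild-type mouse 3 fell below BCL6-insufficient mouse 3, so the groups overlapped. The log2 fold change was -0.24 with a 95% interval from -0.49 to 0.0044 (adjusted p = 0.170), and it stayed below 0 in each of 20 alternative analyses without being called in any.

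*Lef1*, which encodes an HMG-box factor of the Wnt pathway that raises *Bcl6*, *Icos* and interleukin-6 receptor genes in early Tfh cells, was lower in the BCL6-insufficient mice. It lies on chromosome 3 from 131110471 to 131224356, plus strand. Values in the BCL6-insufficient mice were 178, 155 and 144 normalized CPM and those in the wild-type mice 278, 221 and 224. The highest BCL6-insufficient mouse stayed below the lowest wild-type mouse. The means were 159 ± 17.5 and 241 ± 32.2, a log2 fold change of -0.60 (SE 0.11, 95% interval -0.83 to -0.37, adjusted p = 0.000606). Among the alternatives it was called in 19 of 20, the exception being log2(TPM + 1) without a filter (-0.62, adjusted p = 0.0884 by limma).

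*Tcf7* encodes the partner of *Lef1* in the same role, and was by far the most abundant transcript of the 10. It lies on chromosome 11 from 52252371 to 52283014, minus strand. The BCL6-insufficient mice had 1010, 1048 and 968 normalized CPM and the wild-type mice 1254, 1192 and 1211. The groups did not overlap, although the gap was small. With means of 1009 ± 39.8 and 1219 ± 32.1, the log2 fold change was -0.27 (SE 0.081, 95% interval -0.44 to -0.10, adjusted p = 0.0216), and 55.2% of genes tested had a larger absolute change. The call was lost when the fit was corrected for the GC content and length of the longest transcript (-0.14, adjusted p = 0.219 by edgeR). It was also lost without wild-type mouse 1 (-0.26, adjusted p = 0.0715 by edgeR) or wild-type mouse 3 (-0.28, adjusted p = 0.0504). Each technical repeat on its own also lost the call (-0.30 and -0.23, adjusted p = 0.130 and 0.149 by edgeR).

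**Figure D2:**
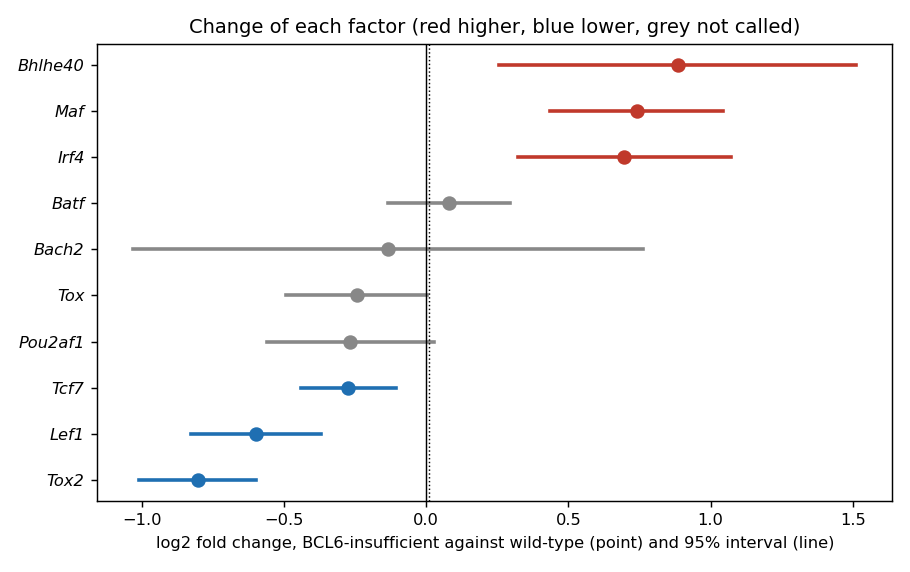
Log2 fold change of each gene, BCL6-insufficient against wild-type (x axis), as points with 95% intervals from edgeR on 6 mice; red is called higher, blue called lower and grey not called, and the dotted line marks the median of all genes tested, 0.011. *Bhlhe40*, *Maf* and *Irf4* lie above 0 and *Tcf7*, *Lef1* and *Tox2* below, and the interval of *Bach2*, from -1.03 to 0.76, is the widest.

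*Maf* was higher in the BCL6-insufficient mice. It encodes a large MAF-family bZIP factor that activates *Il4* and *Il21* in Tfh cells, and it lies on chromosome 8 from 115682942 to 115707794, minus strand. BCL6-insufficient mice held 81.7, 71.8 and 69.8 normalized CPM and the wild-type mice 42.5, 56.0 and 35.5. All mice of the first group were above all of the second. The means were 74.4 ± 6.40 and 44.7 ± 10.4, a ratio of 1.67 and a log2 fold change of 0.74 (SE 0.15, 95% interval 0.44 to 1.04, adjusted p = 0.00115). It was called in each of the 6 analyses that left out 1 mouse, and not in the first repeats alone (0.60, adjusted p = 0.0800) or on log2(TPM + 1) (0.56, adjusted p = 0.0762 by limma).

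*Irf4*, an interferon regulatory factor whose level follows the strength of receptor signaling and whose partner is *Batf*, was also higher, with 1 mouse well above the rest. It lies on chromosome 13 from 30749226 to 30766976, plus strand. The BCL6-insufficient mice had 74.8, 45.6 and 43.3 normalized CPM and the wild-type mice 30.8, 40.3 and 30.3. BCL6-insufficient mouse 1 stood apart, and the other mice of its group were close to wild-type mouse 2. The log2 fold change was 0.70 (SE 0.18, 95% interval 0.32 to 1.07, adjusted p = 0.00947). Without BCL6-insufficient mouse 1 it was 0.40 and not called (adjusted p = 0.140), and without wild-type mouse 3 it was 0.62 and not called (adjusted p = 0.0555). With the first repeats alone the value was 1.098 and with the second repeats alone 0.43, and the latter was not called (adjusted p = 0.168).

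*Batf*, the bZIP partner of *Irf4* that is needed for Tfh cells and acts on *Bcl6* and *Maf*, was not called. Its gene lies on chromosome 12 from 85686669 to 85709087, plus strand. Its levels were 228, 185 and 224 normalized CPM in the BCL6-insufficient mice and 199.6, 187 and 216 in the wild-type mice. The groups overlapped over most of their range. The log2 fold change was 0.081 with a 95% interval from -0.13 to 0.30 (adjusted p = 0.647).

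*Bach2* was the least abundant of the 10 genes, with 6 to 39 counts in a library. Its gene is on chromosome 4 from 32238804 to 32586108, plus strand. Values in the BCL6-insufficient mice were 5.53, 2.10 and 3.29 normalized CPM and those in the wild-type mice 5.04, 2.67 and 4.35. The groups overlapped throughout, and the 2 repeats of BCL6-insufficient mouse 3 differed by 2.52 on the log2 scale. At this depth no difference was detectable: the log2 fold change was -0.13 with a 95% interval from -1.03 to 0.76 (adjusted p = 0.871).

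*Bhlhe40* was also scarce, and higher in the BCL6-insufficient mice. It encodes a basic helix-loop-helix repressor of E-box sites that is known to restrain *Il10*, and it lies on chromosome 6 from 108660629 to 108666925, plus strand. The BCL6-insufficient mice had 11.2, 7.43 and 10.1 normalized CPM and the wild-type mice 4.03, 6.58 and 4.96. The lowest mouse of the first group was just above the highest of the second. The log2 fold change was 0.88 (SE 0.30, 95% interval 0.26 to 1.51, adjusted p = 0.0455). This adjusted p was close to the threshold, and the call was lost in 12 of 20 alternatives. Among them were library totals (adjusted p = 0.0568), a filter of at least 1 count (0.0590), the first and second repeats alone (0.132 and 0.241), all by edgeR, and the 3 fits on TPM. They also included the fits without BCL6-insufficient mouse 1 (0.75, adjusted p = 0.163), BCL6-insufficient mouse 3 (0.84, adjusted p = 0.0997), wild-type mouse 1 (0.73, adjusted p = 0.166) or wild-type mouse 3 (0.84, adjusted p = 0.128).

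*Pou2af1*, a coactivator of the octamer-binding factors *Pou2f1* and *Pou2f2* that is best known in B cells and is also used by Tfh cells, was not called. Its locus is on chromosome 9 from 51213708 to 51240080, plus strand. BCL6-insufficient mice held 38.2, 40.9 and 33.0 normalized CPM and the wild-type mice 44.8, 42.8 and 47.3. The mice of the groups did not overlap, yet the log2 fold change of -0.27 had a 95% interval that reached 0 (-0.56 to 0.027, adjusted p = 0.210).

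The 2 repeats of a mouse were closest for *Tox* and *Tcf7*, with a median gap of 0.077 and 0.095 on the log2 scale, and farthest apart for *Bach2* and *Bhlhe40*, at 0.56 and 0.48. Wild-type mouse 2 gave the largest gap for *Tcf7* (0.32), *Lef1* (0.50), *Tox2* (1.08), *Irf4* (0.93) and *Pou2af1* (0.97), all gaps on the log2 scale. Its second repeat was the lower of the pair for *Tcf7*, *Lef1*, *Tox2* and *Pou2af1* and the higher for *Irf4*. Without wild-type mouse 2, 6 of the 10 genes were called, 3 higher and 3 lower (background 13.5%).

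**Figure D3:**
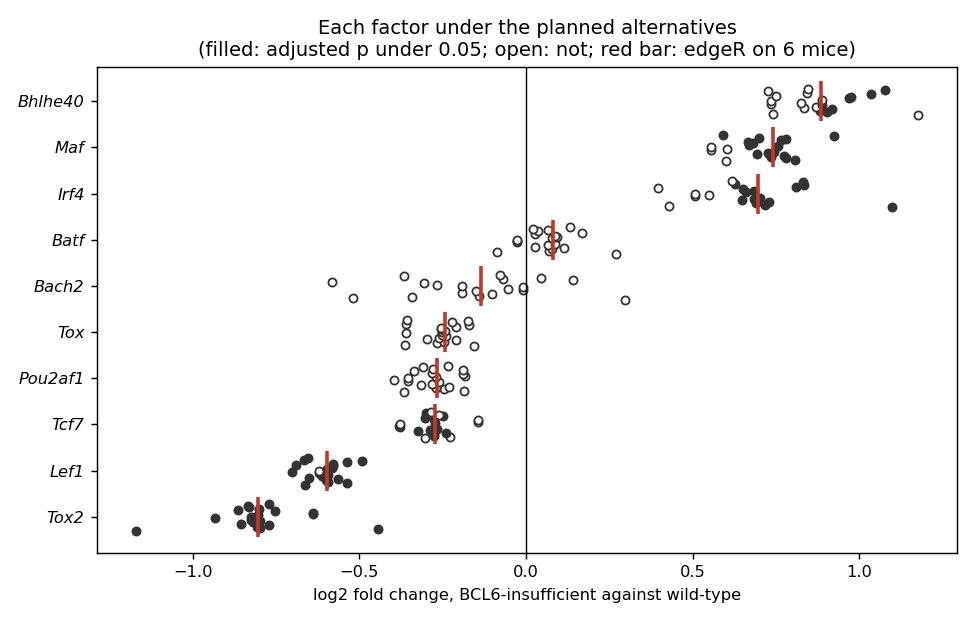
Log2 fold change of each gene (x axis, BCL6-insufficient against wild-type) under the alternative analyses, 1 point per alternative; filled points had an adjusted p under 0.05, open points did not, and the red bar is edgeR on 6 mice. *Tox2* was called in 20 of 20 alternatives, *Lef1* in 19, *Maf* in 16, *Irf4* in 14, *Tcf7* in 13 and *Bhlhe40* in 8, and *Batf* and *Bach2* have points on both sides of 0.

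Strand was not kept by the library method, so reads from overlapping genes on opposite strands cannot be told apart by strand. In GENCODE M21, *Maf* shares 440 exon bases with *Gm15655*, *Lef1* 1208 with *Gm43352*, *Bach2* 537 with *Bach2os*, *Tox* 260 with *Gm11802* and *Bhlhe40* 118 with *0610040F04Rik*. Counts of these 5 genes are uncertain to that extent. *Tcf7*, *Tox2*, *Batf*, *Irf4* and *Pou2af1* share no exon bases with another gene of that annotation.

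Levels of different genes were compared as normalized CPM per kb of exon. In wild-type mice the order was *Tcf7* (464 ± 12.2), *Batf* (143 ± 10.5), *Tox2* (69.4 ± 3.04), *Lef1* (27.4 ± 3.66), *Pou2af1* (17.6 ± 0.878), *Tox* (17.5 ± 2.37), *Irf4* (6.89 ± 1.15), *Maf* (5.42 ± 1.26), *Bhlhe40* (1.103 ± 0.274) and *Bach2* (0.404 ± 0.123). Only the neighbors *Pou2af1* and *Tox*, and *Irf4* and *Maf*, overlapped between mice. In BCL6-insufficient mice the top 3 and the last 2 genes kept their places, at 384 ± 15.2 for *Tcf7*, 151 ± 16.8 for *Batf* and 39.8 ± 3.06 for *Tox2*, and at 2.03 ± 0.412 for *Bhlhe40* and 0.366 ± 0.175 for *Bach2*. The 5 genes between them ran from *Lef1* at 18.1 ± 1.99 to *Maf* at 9.03 ± 0.777 normalized CPM per kb, and each overlapped with its neighbor in that stretch. *Tcf7* alone made up between 58.2% and 62.3% of the summed level per kb of the 10 genes in every mouse.

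**Figure D4:**
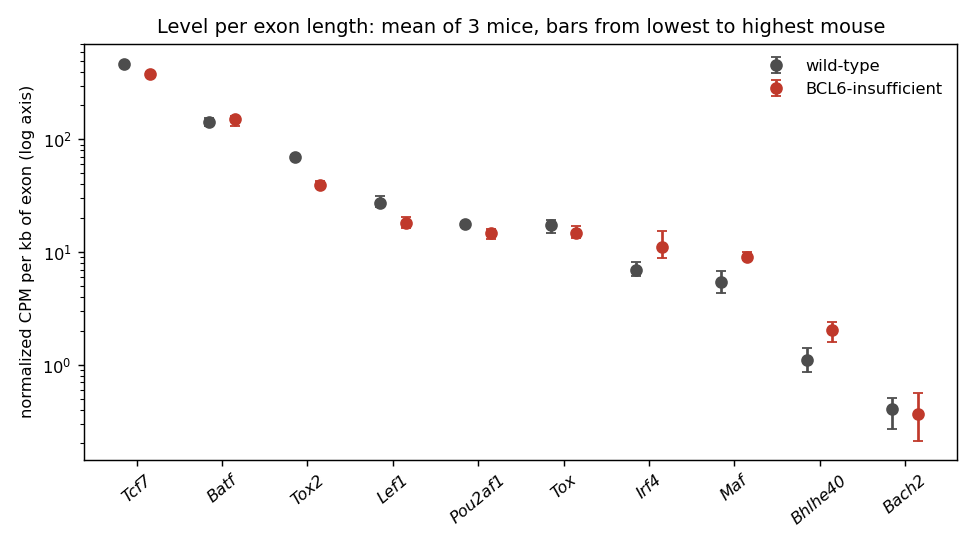
Normalized CPM per kb of exon (log y axis) of the 10 genes, ordered by the wild-type mean; points are the mean of 3 mice and bars run from the lowest to the highest mouse. The levels span from 464 for *Tcf7* to 0.404 for *Bach2* in wild-type mice, and the bars of the groups do not overlap for *Tcf7*, *Tox2*, *Lef1* and *Pou2af1* (lower with the BCL6-insufficient label) and for *Irf4*, *Maf* and *Bhlhe40* (higher).

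Ratios within a mouse do not depend on the scaling between mice. They were taken for 4 pairs chosen after the values were seen: a pair of HMG relatives each for *Lef1* and *Tox2*, and *Batf* as the reference for *Maf* and *Irf4*. The log2 ratio of *Lef1* to *Tcf7* counts was -2.50, -2.76 and -2.75 in the BCL6-insufficient mice and -2.17, -2.43 and -2.43 in the wild-type mice, a difference of -0.32. For *Tox2* to *Tox* it was 0.23, 0.54 and 0.047 against 0.73, 0.64 and 1.13, a difference of -0.56. Each of these pairs separated the mice of the groups without overlap. For *Maf* to *Batf* the ratios were -1.48, -1.37 and -1.68 against -2.23, -1.74 and -2.61, a difference of 0.68 with no overlap. For *Irf4* to *Batf* they were -1.61, -2.02 and -2.37 against -2.70, -2.21 and -2.84, a difference of 0.58, and the groups overlapped. Because of how the pairs were chosen, these ratios are a description, with no test.

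**Figure D5:**
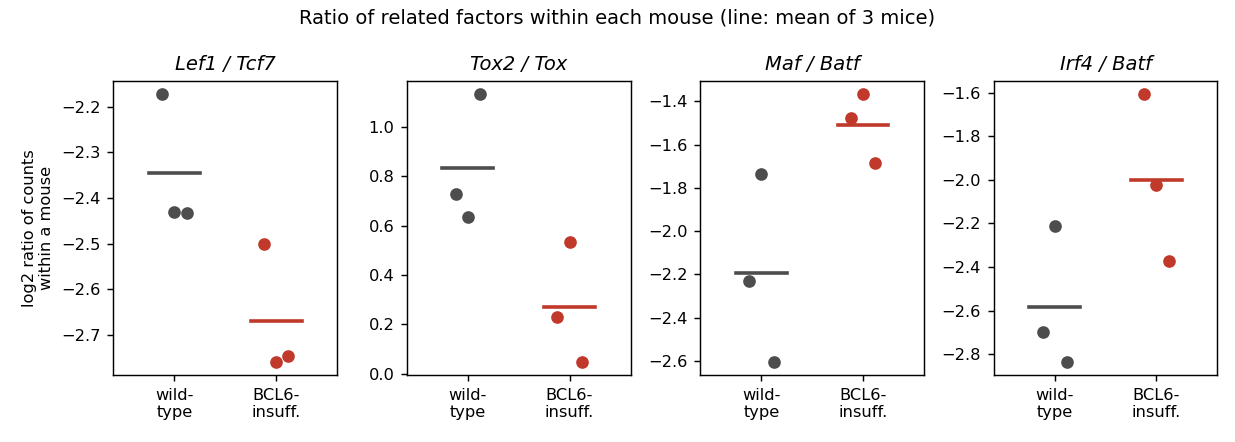
Log2 ratio of the counts of 2 genes within each mouse (y axis, a separate scale for each pair) in wild-type (grey) and BCL6-insufficient (red) mice; points are mice and lines the mean of 3 mice. The groups do not overlap for *Lef1* to *Tcf7*, *Tox2* to *Tox* and *Maf* to *Batf*, and do for *Irf4* to *Batf*.

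For the gene of smallest p in each direction, the tested genes whose mean-centred log2 CPM over the 6 mice was closest were looked up. *Actr3*, *Prps1* and *Gm41664* were closest to *Tox2*, with root mean square differences of 0.035, 0.041 and 0.042 on the log2 scale over a range of 0.98 for *Tox2*. *Arl5b*, *Sap30l* and *Trim56* were closest to *Maf*, at 0.059, 0.068 and 0.076 over a range of 1.19. With 6 mice in 2 groups, any gene that separates the groups by a like amount is close by this measure.

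Promoter windows from RefSeq (GRCm38.p6, 250 bases before to 50 after a transcript start) were found for 7 of the 10 genes, 15 windows in all, and not for *Tox*, *Maf* and *Bhlhe40*. Motifs for factors of this set and for BCL6 were searched on both strands: CTTTGNT for *Tcf7* and *Lef1*, TTCNNNGAA for BCL6, which STAT factors share, TGANTCA for AP-1, CACGTG for *Bhlhe40* and ATTTGCAT for the octamer. Before the start, 3 genes had a match, each in a window of an internal start within the gene, and *Irf4* had a match to CTTTGNT 31 bases after its start, which is not shown. The stretches printed lie outside annotated exons of these genes. They are shown because they are the only matches before a start among these 7 genes, with the match in capitals and 40 bases on either side. *Tox2* has a reverse match to CTTTGNT 140 bases before a start, in chr2:163225273-163225359, plus strand. *Lef1* has CACGTG 79 bases before a start, in chr3:131156175-131156260, plus strand. *Bach2* has a match to TTCNNNGAA 140 bases before a start, in chr4:32417255-32417343, plus strand.
Tox2: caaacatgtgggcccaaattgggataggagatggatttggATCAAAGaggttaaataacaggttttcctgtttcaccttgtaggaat
Lef1: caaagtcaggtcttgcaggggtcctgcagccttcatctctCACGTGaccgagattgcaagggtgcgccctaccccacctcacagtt
Bach2: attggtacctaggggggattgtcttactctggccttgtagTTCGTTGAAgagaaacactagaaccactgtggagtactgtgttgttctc
Of all 32851 promoter windows, 16.0% hold CTTTGNT before the start, 6.02% CACGTG and 7.02% TTCNNNGAA, and over the whole windows the shares are 18.6%, 7.15% and 8.30%. Counted by gene over whole windows, 20.9%, 8.09% and 9.55% of 27025 genes hold them. *Tox2* has 5 windows and *Lef1* 4, which gives each more room for a match. A match describes letters only, and binding was not measured here.

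The families and partners of the 10 genes were read from a list of 39 genes, of which 4 were not analysed here and 27 passed the expression filter. Of these, 6 were called (22.2%, background 18.0%), 2 higher and 4 lower, and the median log2 fold change was -0.20. Without BCL6-insufficient mouse 1 (background 12.4%) or wild-type mouse 3 (10.8%), 3 were called, 1 higher and 2 lower. With the second repeats alone, 1 of 25 tested was called, higher (background 12.4%). *Irf5*, a relative of *Irf4*, was higher, at 34.2 ± 0.225 against 19.1 ± 3.37 normalized CPM (log2 fold change 0.84, adjusted p = 0.00159). *Jund*, an AP-1 partner of *Batf*, was higher at 55.9 ± 9.58 against 42.2 ± 2.40 (0.41, adjusted p = 0.0480).

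Partners that were lower came from several families. *Jun*, another AP-1 partner of *Batf*, was at 4.98 ± 0.780 against 11.3 ± 6.74 normalized CPM (log2 fold change -1.18, adjusted p = 0.0198), with wild-type mouse 3 at 19.0 and the other wild-type mice at 6.50 and 8.36. *Ikzf3*, an Ikaros-family zinc finger factor, fell from 54.4 ± 8.29 to 33.1 ± 1.23 (-0.72, adjusted p = 0.00125). *Irf8*, which also binds composite sites with *Batf*, was at 18.6 ± 5.23 against 31.4 ± 11.5 (-0.76, adjusted p = 0.0260). *Mafk*, a small MAF protein that pairs with *Bach2*, was at 11.1 ± 2.22 against 18.1 ± 2.62 (-0.71, adjusted p = 0.0291). The octamer factors that *Pou2af1* binds were not called (*Pou2f1* 0.33, adjusted p = 0.185; *Pou2f2* 0.28, adjusted p = 0.325), nor was *Ctnnb1*, which encodes the β-catenin that binds *Tcf7* and *Lef1* proteins (0.25, adjusted p = 0.0976). These 3 genes are named for their roles, after their values were seen. The IRF and AP-1 genes called thus included both directions.

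A list of 40 genes of the Tfh program and of competing fates, many of them known targets of these factors, had 36 genes tested. Of these, 13 were called (36.1%, background 18.0%), 9 higher and 4 lower, with a median log2 fold change of 0.028. Without wild-type mouse 1, 8 were called, 5 higher and 3 lower (background 12.8%), without wild-type mouse 3, 8 were called, 4 higher and 4 lower (10.8%), and without BCL6-insufficient mouse 1, 10 were called, 5 higher and 5 lower (12.4%). Beside *Bcl6*, *Icos*, the costimulator that drives Tfh motility, rose to 432 ± 38.4 from 278 ± 32.3 normalized CPM (log2 fold change 0.64, adjusted p = 0.000147). *S1pr1*, a receptor for exit from lymph nodes, was at 360.0 ± 21.2 against 234 ± 28.2 (0.62, adjusted p = 0.000176). *Id2*, an inhibitor of E proteins, was at 22.1 ± 5.02 against 12.5 ± 3.37 (0.82, adjusted p = 0.0145). *Runx2* was at 4.74 ± 1.66 against 1.27 ± 0.417 (1.88, adjusted p = 0.0100), and *Tnfsf8*, a TNF family ligand, at 65.6 ± 8.62 against 47.4 ± 6.75 (0.47, adjusted p = 0.0202). The other called genes that were higher were *Gpr183*, *Runx3* and *Il4*, which are named after their values were seen.

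Of the 4 genes called lower, *Il21r* was at 50.9 ± 9.47 against 85.6 ± 9.17 normalized CPM (log2 fold change -0.75, adjusted p = 0.000590), *Il6ra*, a known target of *Tcf7* and *Lef1*, at 102 ± 8.56 against 133 ± 10.02 (-0.38, adjusted p = 0.0173), *Pdcd1* at 164 ± 6.96 against 220 ± 16.8 (-0.42, adjusted p = 0.00420) and *Cxcr5* at 241 ± 17.7 against 317 ± 11.9 (-0.40, adjusted p = 0.00476). PD-1 and CXCR5 were the proteins used for the sort. *Il21*, a target of *Maf*, was at 31.3 ± 9.60 against 35.1 ± 10.9 and was not called (-0.17, adjusted p = 0.637). It is named after its values were seen.

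Marker lists of cell types were read beside these results. In bulk samples, fewer cells of a type and less RNA per cell cannot be told apart. The summed level of 8 T cell markers was 9546 to 10570 normalized CPM in the BCL6-insufficient mice and 7303 to 8834 in the wild-type mice, with *Trac* called higher and *Cd4*, *Cd5* and *Lck* called lower. *Trac* made up most of that sum, and without it the other 7 markers summed to 2900 to 3263 against 3278 to 3586, the opposite order. The 8 Tfh markers, with *Icos*, *Bcl6* and *Tnfsf8* called higher and *Cxcr5* and *Pdcd1* called lower, summed to 1547 to 1575 against 1390 to 1504, and without *Bcl6* to 1401 to 1425 against 1333 to 1428, which overlapped. B cells express *Pou2af1*, *Bach2* and *Irf4*, and the 14 B cell markers summed to 19.3 to 125 against 18.0 to 97.9, with 8 at a mean under 1 CPM. Of the 6 tested, 0 were called by edgeR or DESeq2, and 0 had an unadjusted p under 0.05. The highest levels were in BCL6-insufficient mouse 2 and wild-type mouse 3. Without those 2 mice, an analysis chosen after the data were seen, 4 of the 10 genes were called, 2 higher and 2 lower (background 8.45%), and *Tcf7* (-0.31, adjusted p = 0.1103) and *Bhlhe40* (1.003, adjusted p = 0.101) were not. *Jchain* and *Mzb1* of the 5 plasma cell markers were at 0 in every mouse, and nearly all of that list was *Xbp1*, which T cells also express, at a mean of 89.4 against 85.3 normalized CPM.

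Among the other lists, those of myeloid and regulatory T cells did not overlap between the groups. The myeloid markers summed to 108 to 113 normalized CPM in the BCL6-insufficient and 84.0 to 89.7 in the wild-type mice, most of it *Cst3*. Without *Cst3* the other 6 measured markers summed to 15.6 to 28.5 against 7.42 to 10.9, with *Lyz2* called higher. *Lyz2* was at 16.5 in BCL6-insufficient mouse 1, the mouse with the highest *Irf4*. Every other measured myeloid marker was lower in that mouse than in BCL6-insufficient mouse 2. *Csf1r*, for example, was at 8.30 against 9.62 and *Tyrobp* at 0.58 against 4.46. The 3 markers of regulatory T cells summed to 205 to 236 against 127 to 178, with *Ikzf2* called higher, while *Foxp3*, the defining gene, was at 2.36 to 4.32 against 4.58 to 5.78 and was not called. The naive or central memory list summed to 1197 to 1334 against 1034 to 1235 with *S1pr1* called higher. The CD8 list summed to 21.1 to 31.9 against 26.5 to 39.6, nearly all of it *Cd8b1*. *Cd8a* was at 0 in every mouse but wild-type mouse 3 (0.15). Of the NK list only *Klrb1c* was measured, at 0.087 to 1.54 against 0 to 1.19. The part of these lists in the values of the 10 genes was not tested.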

How the data were processed

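SMART-Seq2 libraries of about 200 sorted cells, which do not keep strand, were made in 2 technical repeats from each of 6 recipient mice. The authors used FastQC for read quality, HISAT2 (version 2.2.1 in the submitters' processing notes) for alignment to GRCm38 and HTSeq for counting; the annotation release and strand setting were not given in the sources used here. They deposited raw counts per gene for 24561 genes, and TPM values, for which the gene length used was not given. No column was left unmapped.

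From the deposited counts, the repeats of a mouse were summed, and 3 mice were compared with 3 by edgeR 4.0.16 in R 4.3.3 (TMM, filterByExpr, quasi-likelihood test, Benjamini-Hochberg adjustment over the 12719 genes tested, threshold 0.05). The mice are separate recipients, so that p-values measure the spread between these recipients and not between donors. No molecular identifiers were used, so reads are not independent molecules. The total count per mouse was 10098419 to 14002507. Exon lengths and positions came from GENCODE M21, in which 23822 symbols were found by name.

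Alternatives were DESeq2 1.42.0, limma 3.58.1 (voom with mouse as random effect, and log2 of the deposited TPM with pseudocounts of 1 and 0.1), each repeat alone, other scalings and filters, GC and length offsets from mgcv 1.9.3, the replicate number as a block, and leaving out each mouse. The scripts were tested on simulated data. All 10 genes are described; from each further list, called genes are named up to the 6 of smallest p per direction, and for the called gene of smallest p in each direction the 3 closest genes. The 10 genes and the lists were chosen with earlier results of these data known.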

Additional observations from a re-analysis of the deposited data

Results flagged for a closer look

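*Irf4* in the second repeat of wild-type mouse 2 was at 51.4 CPM, against a median of 27.2 in the other 5 wild-type libraries. Its gap to the nearest library took up 0.659 of the range of the group, which marks it as far from the others by Dixon's criterion for 6 values. Of 20 sets of 6 libraries examined (10 genes in 2 groups), 1 was marked in this way, and chance marks about 1 in 20. The same library was the lowest of its group for *Tox2*, at 154 CPM.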

How the results depend on the processing

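The values of the 10 genes were recomputed under 20 alternatives; of the single-gene values, 162 kept their direction and their side of the threshold, 30 were no longer called and 7 changed sign. Of the 10 genes, 6 were called with edgeR on 6 mice, and 3 with the first repeats alone, 3 with the second repeats alone, 3 by limma on TPM with a pseudocount of 1, 3 with 0.1 and 1 on unfiltered TPM, the calls on TPM all being lower. The share of all genes called fell too, from 18.0% to 9.38%, 12.4%, 10.3%, 9.92% and 0.987% in that order, and to 10.8% to 14.9% without 1 mouse; these shares hold for each list below. Leaving out 1 mouse gave 3 to 6, with the 3 without wild-type mouse 3. Fewer cells and reads enter a single repeat; otherwise the cause was not tested. Of the partner genes, 6 were called, against 3 (first repeats), 1 (second repeats), 0 (unfiltered TPM by limma, with 11 of 35, or 31.4%, at an unadjusted p under 0.05, and 17.5% of all genes) and 3 to 4 without 1 mouse, with 3 without BCL6-insufficient mouse 1 or wild-type mouse 3. Of the program genes, 13 were called, against 8 (second repeats), 6 and 6 on TPM with pseudocounts of 1 and 0.1, 1 on unfiltered TPM and 8 to 12 without 1 mouse, with 8 without wild-type mouse 1 or wild-type mouse 3. The median of the 10 genes, -0.19, was 0.056 with the first repeats, and -0.24 to -0.015 without 1 mouse, the latter without BCL6-insufficient mouse 2. With the second repeats alone, 2 of the 10 genes, not 7, had groups that did not overlap (30.0% of all genes). Without 1 mouse there were 7 to 8, where 40.8% to 44.3% of all genes did not overlap. Without BCL6-insufficient mouse 2 and wild-type mouse 3, added after the data were seen, the counts were 3 partner and 7 program genes, with a median of -0.036 for the 10 genes and *Bach2* at 0.21. The genes never called changed sign in places: *Bach2* was at 0.30 with the first repeats, -0.58 to 0.14 without 1 mouse, with 0.14 without BCL6-insufficient mouse 2 and 0.046 without wild-type mouse 1, and *Batf* at -0.087 with the second repeats, -0.027 on TPM with a pseudocount of 1, filtered or not, and -0.028 with 0.1. *Bach2* was not tested with at least 10 counts in every library. Over all genes 2288 were called (1166 higher, 1122 lower), 1059 and 1446 with the first and second repeats, 1305 (390 higher, 915 lower) on TPM with a pseudocount of 1, 1260 (374 higher, 886 lower) with 0.1, where the median of all genes was -0.11, 221 (78 higher, 143 lower) on unfiltered TPM, 1424 without wild-type mouse 3 and 1080 without the 2 mice.

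Whether the replicate number pairs the mice was not stated. Deviations from the group means correlated across genes at 0.10, -0.025 and 0.036 for the numbers 1, 2 and 3. BCL6-insufficient mice 1 and 3 correlated best with the wild-type mouse of the same number, and mouse 2 with wild-type mouse 3 (0.066). With 3 mice per group, such small correlations cannot decide whether the number pairs the mice. With the number as a replicate block, 5 of the 10 genes were called, *Bhlhe40* not (0.89, adjusted p = 0.0527 by edgeR), with 7 partner and 14 program genes and 2579 of all genes (20.3%); with GC and length trends removed as well, 5 of the 10 were called (18.1% of all genes) and *Tcf7* was not.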
